A study of Mus musculus with 4 samples.

Results

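The 6 genes described here were Cx3cr1, the receptor for fractalkine, Csf1r, the receptor for colony-stimulating factor 1 (CSF-1), Csf1, the gene of that ligand, and Csf2ra, Csf2rb and Csf2rb2, chains of the receptors for granulocyte-macrophage colony-stimulating factor (GM-CSF) and its relatives. They were chosen by symbol and were 6 of the 32285 genes in the deposited gene list. Each was followed across 4 single-cell libraries of brain immune cells and across 17 classes of cells gated by marker genes, none of which was 1 of the 6. A class name below stands for the cells that its gate took. All mice were wild-type C57Bl/6. The 4 groups were aged mice after cardiac arrest and resuscitation (aged CA), aged mice after sham surgery (aged sham), young mice after cardiac arrest (young CA) and young mice after sham surgery (young sham). Aged mice were 18 to 20 months old and young mice 3 to 6 months old. Arrest was induced with potassium chloride and followed by resuscitation, and sham mice had the same surgery without the arrest. On day 3 the mice were perfused, their brains were broken up mechanically, the suspension was passed through Percoll to enrich immune cells, and cells bearing CD45, the surface protein common to white blood cells, were sorted and sequenced with 10x Genomics 3' chemistry. Each library was a pool of 3 mice whose cells cannot be told apart, so every group was 1 library, no difference between groups had a replicate check, and no p-value is given. The intervals below are exact 95% intervals (Poisson for levels, Clopper-Pearson for shares of cells, conditional binomial for ratios) and cover counting error only.

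Fractalkine is made mainly by neurons, and its receptor Cx3cr1 is carried by microglia, the resident macrophages of the brain, and by some monocytes and other macrophages. Csf1r is the tyrosine kinase on which microglia depend for survival. It is bound by CSF-1 and by interleukin 34. The GM-CSF receptor pairs a ligand-binding alpha chain, Csf2ra, with a signalling beta chain, Csf2rb, which it shares with the receptors for interleukin 3 and interleukin 5. Mice carry a second beta chain gene, Csf2rb2, whose product serves interleukin 3 alone.

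The sequences of 250 bases before the annotated start of 4 members are printed so that the letters around a start can be read beside the levels that follow. Cx3cr1 had lower levels after cardiac arrest in both ages, and the other 3 had higher levels. They are RefSeq sequences on build GRCm38.p6, written 5′ to 3′ on the gene's strand, and capitals mark a match to a searched motif. The gene positions given further below come from another annotation, whose starts can differ. By those positions the Cx3cr1 stretch lies inside the gene body, which reaches 120069879. The last bases printed for Csf2ra lie inside its body, which reaches 61228429. No binding was measured here.
Cx3cr1 promoter, chr9:120068297-120068546, minus strand: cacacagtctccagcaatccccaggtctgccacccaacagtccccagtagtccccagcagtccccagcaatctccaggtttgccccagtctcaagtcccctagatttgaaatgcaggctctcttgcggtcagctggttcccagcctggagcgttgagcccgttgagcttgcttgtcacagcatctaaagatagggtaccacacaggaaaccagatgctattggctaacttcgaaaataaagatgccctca
Csf1 promoter, chr3:107760470-107760719, minus strand: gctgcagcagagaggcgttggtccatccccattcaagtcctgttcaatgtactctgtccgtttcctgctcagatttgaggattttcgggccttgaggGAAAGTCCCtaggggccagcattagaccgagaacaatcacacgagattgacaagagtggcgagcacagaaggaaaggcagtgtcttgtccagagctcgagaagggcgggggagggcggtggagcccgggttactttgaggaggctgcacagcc
Csf2ra promoter, chr19:61228419-61228668, minus strand: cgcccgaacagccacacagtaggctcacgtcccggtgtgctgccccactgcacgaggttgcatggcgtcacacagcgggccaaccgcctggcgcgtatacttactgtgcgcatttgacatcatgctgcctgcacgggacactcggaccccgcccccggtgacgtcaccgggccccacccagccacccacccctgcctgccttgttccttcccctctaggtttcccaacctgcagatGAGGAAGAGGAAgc
Csf2rb2 promoter, chr15:78305722-78305971, minus strand: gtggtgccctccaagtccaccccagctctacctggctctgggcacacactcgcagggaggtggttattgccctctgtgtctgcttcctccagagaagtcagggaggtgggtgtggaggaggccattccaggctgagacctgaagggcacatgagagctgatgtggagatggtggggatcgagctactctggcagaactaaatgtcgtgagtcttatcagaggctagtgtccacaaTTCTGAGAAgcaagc
The motifs were searched on both strands: GGGACTTTC (a kappaB form), GAGGAA (PU.1 type), TTCNNNGAA (STAT), TGACTCA (AP-1) and TATAAA. The capitals in the Csf1 promoter are a kappaB match on the opposite strand, at positions -153 to -145 from the start. Those letters were held by 116 of 32851 windows of all genes, 0.353%, each window running from 250 bases before to 50 bases after a start. The capitals in the Csf2ra promoter are 2 adjacent GAGGAA matches, at -14 to -9 and -8 to -3, letters that 28.3% of all such windows held. The capitals in the Csf2rb2 promoter match the STAT letters at -15 to -7, and 8.30% of windows held them. The Csf2rb2 promoter also had a GAGGAA match on the opposite strand at -167 to -162, left in lower case, and another from 29 to 34 bases after the start, outside the bases printed. The Cx3cr1 window held none of the letters searched. A match is a description of letters, not of a bound site.

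The libraries held 6794 barcodes in aged CA, 7700 in aged sham, 10794 in young CA and 9038 in young sham, with 44277472 to 115892682 unique molecular identifiers (UMIs, each standing for 1 captured RNA molecule) per library. After removal of cells with over 10% mitochondrial UMIs and of likely doublets, 5611, 7083, 9310 and 8120 cells were kept in the same order. Pairs of libraries shared 15 to 32 barcodes, at most 0.416% of the smaller library. Most cells were microglia-like: 4468 in aged CA, 5270 in aged sham, 8291 in young CA and 7424 in young sham. All 10 microglial gate markers and Ptprc, the gene of CD45, were detected in them in every library. The summed level of those 10 markers was itself lower after arrest, at 8489 and 16755 CPM (counts per 1000000 UMIs of the class) in aged CA and aged sham, and at 12915 and 19771 CPM in young CA and young sham. The aged sham library stood apart in depth, with a median of 3531 UMIs per microglia-like cell, against 10523.5 in aged CA, 9418 in young CA and 5800.5 in young sham, and 14.5% of its kept cells carried markers of more than 1 class, against 3.46 to 3.60% elsewhere. The ratios of the 6 genes in microglia-like cells that use it are therefore also given from cells of 5000 to 20000 UMIs. All 4 libraries filled that depth with 1934 to 4831 microglia-like cells each. In aged CA, where the microglial markers were lowest, 5.74% of kept cells passed no gate, against 0.320 to 0.816% elsewhere. A lower gate limit was among the settings reported below. Cells were also clustered with the 6 members left out. Most microglia were in clusters 0 and 6 in aged CA, 11, 16 and 14 in aged sham, 1 and 13 in young CA, and 16 and 14 in young sham. The main clusters thus differed between aged CA, young CA and the sham libraries, while the sham libraries shared clusters 16 and 14.

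In microglia-like cells both receptors of the resident state were lower after cardiac arrest, while Csf1 and the 3 GM-CSF receptor chains were higher, at both ages. The median mitochondrial share of UMIs in these cells moved with the groups, at 3.70% in aged CA, 1.90% in aged sham, 2.60% in young CA and 1.65% in young sham, and 906, 162, 663 and 308 barcodes had been removed for a share over 10%; its part in these differences was not tested. Cx3cr1 stood at 1548 CPM in aged CA, 3328 in aged sham, 2068 in young CA and 4219 in young sham. These sums rest on 75755 to 237907 Cx3cr1 UMIs per library, and the order of the 4 levels was the same as that of the summed microglial markers. The level in aged CA was 2.15 times lower than in aged sham (log2 ratio -1.10, with a ratio of 0.465, 0.461 to 0.469). The level in young CA was 2.04 times lower than in young sham (log2 ratio -1.03, with a ratio of 0.490, 0.487 to 0.493). The lower levels were spread over cells: among cells of at least 2000 UMIs, the median cell had 1371 CPM in aged CA, 3080 in aged sham, 1934 in young CA and 3912 in young sham. The cell at the 90th percentile in aged CA, at 2780 CPM, lay below the median cell of aged sham and young sham. A Cx3cr1 UMI was nevertheless seen in 95.4% of cells in aged CA, 93.8% in aged sham, 97.2% in young CA and 98.3% in young sham. With each cell of at least 2000 UMIs thinned to that number, those shares were 86.5%, 98.1%, 93.5% and 99.5%, so that the aged CA share was the lowest at equal depth. Thinning left out the shallower cells, 178 in aged CA, 1643 in aged sham, 472 in young CA and 721 in young sham.

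Csf1r moved in the same direction by less. It stood at 1701 CPM in aged CA, 2407 in aged sham, 2149 in young CA and 3018 in young sham, and a UMI was seen in 95.5 to 99.1% of cells. The ratio of CA to sham was 0.707 (0.700 to 0.714) in aged mice and 0.712 (0.707 to 0.717) in young mice, log2 ratios of -0.50 and -0.49, inside the 2-fold limit used here to call a difference. The median cell of at least 2000 UMIs had 1688 CPM in aged CA, 2395 in aged sham, 2194 in young CA and 3035 in young sham. Because Cx3cr1 was lower by the larger factor, the number of Csf1r UMIs per Cx3cr1 UMI was 1.10 in aged CA, 0.723 in aged sham, 1.04 in young CA and 0.715 in young sham. Summed over all depths, both sham libraries thus had more Cx3cr1 than Csf1r UMIs and both CA libraries the reverse. That contrast held from 5000 to 10000 UMIs per cell and from 20000 upward, but not at every depth. From 2000 to 5000 UMIs, Csf1r and Cx3cr1 stood at 2622 and 2600 CPM in aged sham and at 3459 and 3406 in young sham. From 10000 to 20000 UMIs they stood at 2215 and 2234 CPM in young CA.

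**Figure D1:**
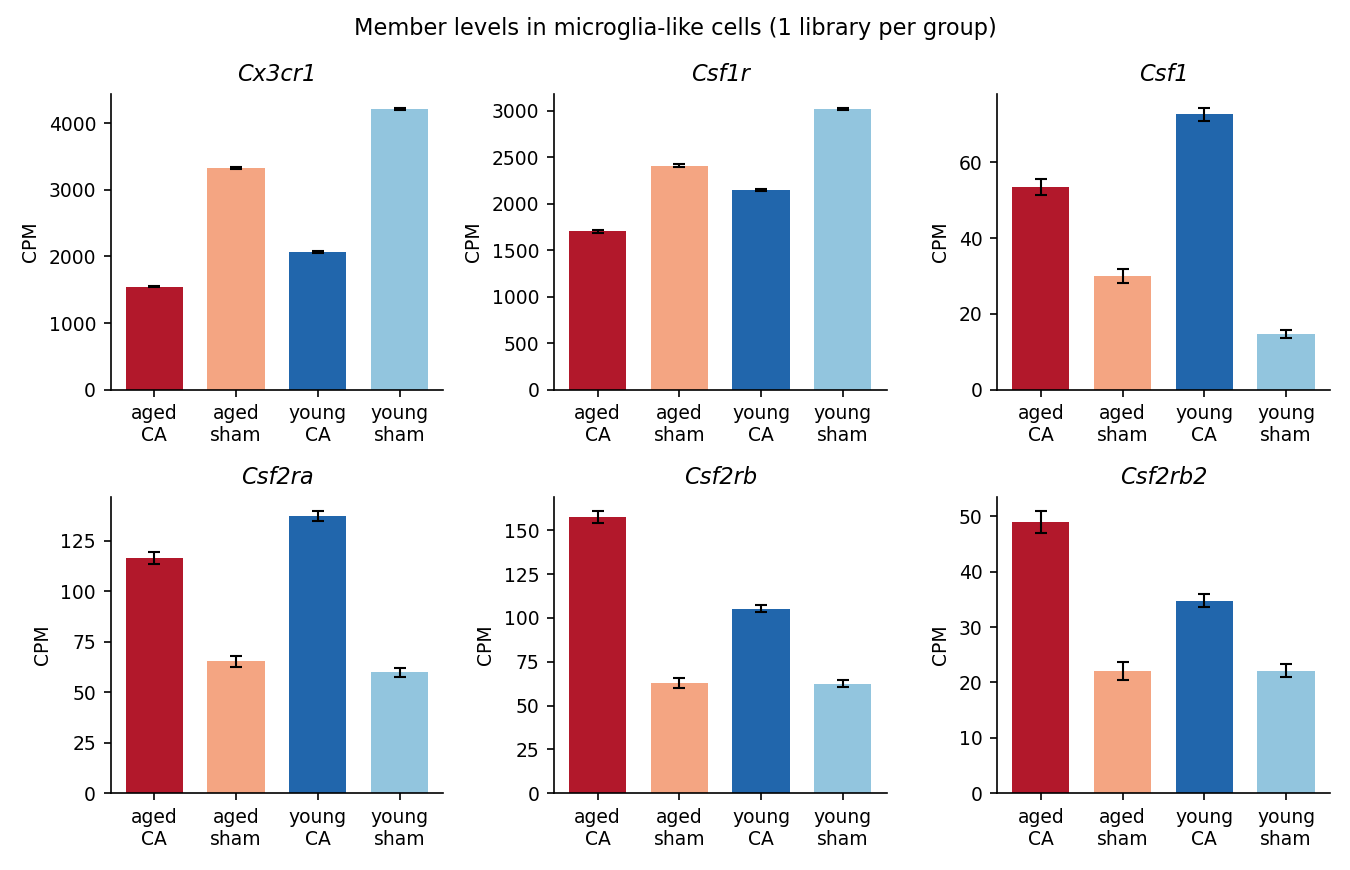
Level of each of the 6 genes in microglia-like cells of the 4 libraries, as bars in CPM from 0, with exact 95% Poisson intervals as error bars. Cx3cr1 and Csf1r were lower in both CA libraries than in their sham libraries, and the other 4 genes were higher.

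Csf1, the ligand gene, had the largest ratio of the 6 in young mice. It stood at 53.4 CPM in aged CA, 29.96 in aged sham, 72.6 in young CA and 14.7 in young sham. Young CA was highest and young sham lowest, with the aged libraries between them. The ratio of CA to sham was 1.78 (1.65 to 1.92) in aged mice, a log2 ratio of 0.83 inside the 2-fold limit, and 4.94 (4.59 to 5.32) in young mice, a log2 ratio of 2.30. The share of microglia-like cells with a Csf1 UMI was 28.9% in aged CA, 8.82% in aged sham, 29.3% in young CA and 7.25% in young sham. At 2000 UMIs per cell the shares were 8.53%, 4.49%, 9.78% and 2.37%. T cells had a Csf1 UMI in 1.94%, 1.20%, 0% and 2.38% of cells at that depth (103, 166, 21 and 42 cells). The young sham share of microglia was close to that of T cells, of which 1 of 42 had a UMI. T cells had 4.02 to 10.3 times the Csf1 that a measure of background described below gives, so they may not stand for background here. Whether the young sham share of microglia lay above background was not settled at this depth. The young CA level also depended on depth: from 5000 to 10000 UMIs Csf1 stood at 52.5 CPM in aged CA, 25.6 in aged sham, 48.5 in young CA and 13.5 in young sham, and from 20000 UMIs upward at 58.2, 45.7, 103 and 20.9 CPM.

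Of the GM-CSF receptor chains, the alpha chain and the beta chains differed in which age had the larger ratio. Csf2ra stood at 116 CPM in aged CA, 65.3 in aged sham, 137 in young CA and 59.8 in young sham. Its ratio of CA to sham was 1.78 (1.69 to 1.88) in aged mice and 2.30 (2.21 to 2.39) in young mice. Csf2rb stood at 157 CPM in aged CA, 62.6 in aged sham, 105 in young CA and 62.3 in young sham. The sham levels of Csf2rb were within counting error of each other, while its ratio of CA to sham was 2.51 (2.39 to 2.64) in aged mice and 1.69 (1.62 to 1.76) in young mice. Csf2rb2 was likewise highest in aged CA, then in young CA, with the sham levels within counting error of each other, 48.9 CPM in aged CA, 22 in aged sham, 34.8 in young CA and 22.1 in young sham. Its ratio of CA to sham was 2.23 (2.04 to 2.43) in aged mice and 1.57 (1.47 to 1.68) in young mice. The number of Csf2rb UMIs per Csf2ra UMI was 1.35 in aged CA, 0.959 in aged sham, 0.767 in young CA and 1.04 in young sham, highest in aged CA and lowest in young CA.

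At equal depth the shares of cells with a UMI of each chain were higher in both CA libraries than in their sham libraries. With cells thinned to 2000 UMIs, a Csf2ra UMI was found in 19.1% of microglia-like cells in aged CA, 13.2% in aged sham, 22.6% in young CA and 12.4% in young sham. A Csf2rb UMI was found in 25%, 11.7%, 18.1% and 10.9%, and a Csf2rb2 UMI in 8.04%, 5.02%, 6.38% and 3.85%, in the same order of libraries. The aged sham share of Csf2rb2 was above the young sham share, although their levels were nearly equal. T cells at that depth had no more than 3.01% for any of the 3 chains in any library. Unthinned, where the deeper CA cells have the advantage, the Csf2rb shares were 67.0%, 25.3%, 51.0% and 31.5%. Thinned cells with both Csf2ra and Csf2rb made up 5.06% of aged CA, 1.46% of aged sham, 4.62% of young CA and 1.60% of young sham microglia, against 4.77%, 1.55%, 4.09% and 1.36% if the 2 chains were drawn independently, so the chains met in single cells about as often as their separate shares give.

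The beta chain genes lie on chromosome 15 of build GRCm38, Csf2rb at 78325752-78353847 on the plus strand and Csf2rb2 at 78282507-78305721 on the minus strand, and are near copies. Their longest transcripts, of 4900 and 4740 bases, shared 394 windows of 90 bases, 8.19% and 8.47% of each, and none of the 411 windows in the last 500 bases, where 3' counting draws most of its reads. Reads from the shared stretches cannot be told apart, so the split between the copies carries that uncertainty. The number of Csf2rb2 UMIs per Csf2rb UMI was 0.311 in aged CA, 0.351 in aged sham, 0.330 in young CA and 0.355 in young sham. Csf1 (chromosome 3, 107741048-107760469) and Csf2ra (chromosome 19, 61223957-61228429) overlapped no other gene in the annotation searched. The annotated body of Cx3cr1 (chromosome 9, 119901616-120069879, minus strand) overlapped 9 other genes of the deposited list, 3 of them on its own strand, so reads in shared exons may be assigned to neither gene. Csf1r (chromosome 18, 61100598-61132149, plus strand) overlapped Hmgxb3 on the opposite strand.

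Against the whole transcriptome, 3 of the 6 members passed 2-fold between aged CA and aged sham: Csf2rb and Csf2rb2 were higher and Cx3cr1 was lower. All 6 members passed the filter of 10 CPM in 1 of the 2 libraries, as did 9783 genes, of which 6.54% were at least 2-fold higher and 9.83% at least 2-fold lower. Between young CA and young sham 3 members passed as well, Csf1 and Csf2ra higher and Cx3cr1 lower, where 6.6% of 9549 genes were higher and 3.16% lower. The calls of Cx3cr1 sit near the limit. With TMM scaling, which moved all log2 ratios of CA to sham up by 0.13 at both ages, the Cx3cr1 log2 ratio was -0.98 in aged mice and -0.90 in young mice, just inside 2-fold, and the other 5 members kept their side. TMM scaling also set the genes called to 846 higher and 779 lower in aged mice, against 640 and 962 as first scaled, and to 804 and 211 in young mice, against 630 and 302. In cells of 5000 to 20000 UMIs the log2 ratios of CA to sham in aged mice were -1.20 for Cx3cr1, -0.49 for Csf1r, 0.75 for Csf1, 0.80 for Csf2ra, 1.30 for Csf2rb and 1.11 for Csf2rb2. In young mice they were -0.98, -0.40, 2.11, 1.21, 0.68 and 0.58. Matched depth left every direction as it was and took the young Cx3cr1 ratio just inside the limit.

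**Figure D2:**
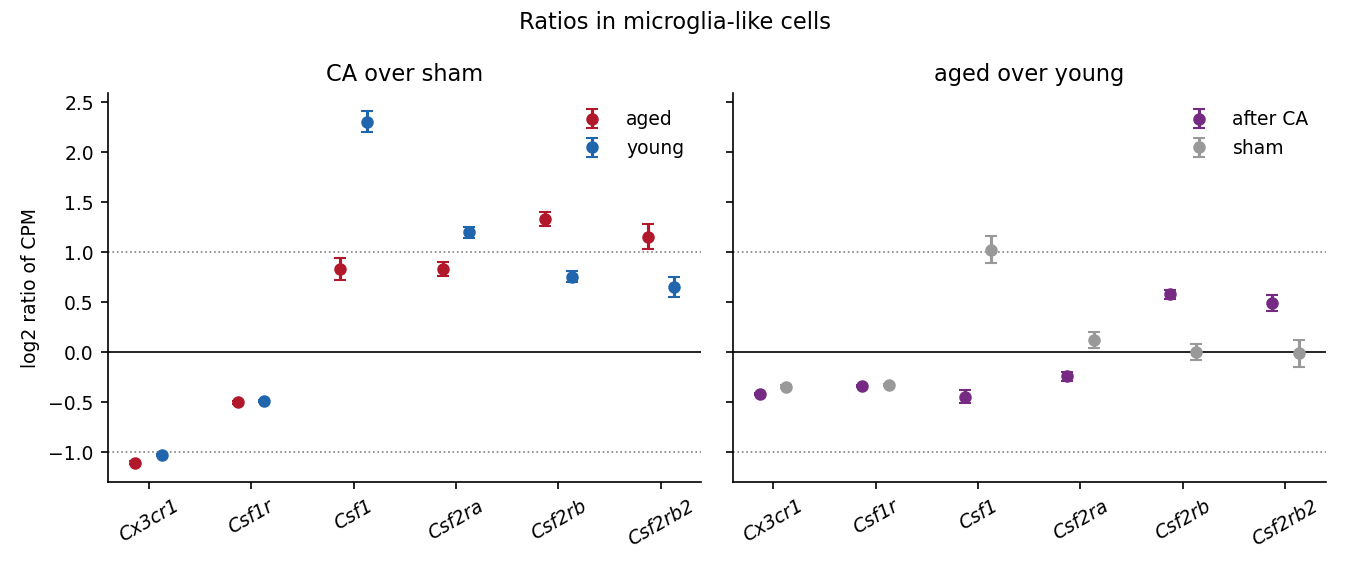
Log2 ratio of each gene in microglia-like cells, for CA over sham in aged and in young mice and for aged over young after CA and after sham, with exact 95% counting intervals and the 2-fold limits drawn. Cx3cr1 was past 2-fold lower after CA at both ages, Csf2rb and Csf2rb2 past 2-fold higher in aged mice, and Csf1 and Csf2ra in young mice.

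The 2 ages were also set against each other directly. After cardiac arrest no member passed 2-fold, where 2.22% of 9411 genes were higher and 3.35% lower in aged CA than in young CA. Csf2rb and Csf2rb2 were higher in aged CA than in young CA, by 1.49 times (1.45 to 1.54) and 1.41 times (1.33 to 1.49). Cx3cr1, Csf1r, Csf1 and Csf2ra were lower, with ratios of 0.748, 0.791, 0.736 and 0.847. The Csf1 log2 ratio was -0.44, and it was -0.24 in cells of 5000 to 20000 UMIs. After sham surgery Cx3cr1 and Csf1r were again lower in aged mice, with ratios of 0.789 and 0.798, and the Csf2rb and Csf2rb2 ratios of 1.0 (0.949 to 1.06) and 0.994 (0.904 to 1.09) had intervals that include 1. Csf1 was 2.04 times (1.85 to 2.24) as high in aged sham as in young sham, the only member past 2-fold there, where 3.34% of 9482 genes were higher and 0.179% lower. That call also sits at the limit, with a log2 ratio of 1.03 that was 0.97 with TMM scaling and 1.13 in cells of 5000 to 20000 UMIs. At that depth the sham log2 ratios of aged to young were -0.28 for Cx3cr1, -0.30 for Csf1r, 0.15 for Csf2ra, 0.01 for Csf2rb and -0.05 for Csf2rb2.

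The aged log2 ratio of CA to sham minus the young one was -0.08 for Cx3cr1 (interval -0.09 to -0.06) and -0.01 for Csf1r (-0.03 to 0.01). The difference was -1.47 for Csf1 (-1.62 to -1.32) and -0.37 for Csf2ra (-0.46 to -0.27), and it was 0.57 for Csf2rb (0.48 to 0.67) and 0.50 for Csf2rb2 (0.35 to 0.66). For all members but Csf1r the ages thus differed by more than counting error, least for Cx3cr1 and most for Csf1, and in opposite directions for the alpha and beta chains. The Cx3cr1 difference depended on the setting. With each cell weighing the same, its log2 ratio was -0.894 in aged mice. In young mice it was then between the 2-fold limit and -0.888, so the -0.08 was not kept. In cells of 5000 to 20000 UMIs the ratios were -1.20 and -0.98, in the direction of the -0.08. With 1 pool per group, differences between mice were not measured.

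Microglia-like cells were further divided by 4 gene sets. Each gate kept cells with at least 2 genes of its set. They also had to be at or above the 90th percentile of its summed level over all libraries. The Ccl3 and Ccl4 gate summed Ccl3, Ccl4, Tnf, Il1b, Ccl2 and Cxcl10. The Spp1 and Lpl gate summed Spp1, Lpl, Gpnmb, Fabp5 and Lgals3. The interferon gate summed interferon-induced genes, and the cycling gate summed cell cycle genes. A cell could thus enter a gate without the genes that name it. Their sizes moved with the groups: the Ccl3 and Ccl4 gate held 32.8% of microglia-like cells in aged CA, 3.49% in aged sham, 6.67% in young CA and 0.566% in young sham. Csf1 was higher in that gate than in cells outside all 4 gates in every library. Median depth differed too, at 9968.5, 4533.5, 13162 and 8643 UMIs in the gate. Outside the gates it was 10485, 3487, 8237 and 5745 UMIs, in the same order of libraries. The part of depth in the Csf1 ratios was not tested. In the Ccl3 and Ccl4 gate Csf1 stood at 82.5 CPM in aged CA, 222 in aged sham, 227 in young CA and 300.3 in young sham. Outside the gates it stood at 34.1 CPM in aged CA, 20.5 in aged sham, 46.0 in young CA and 11.5 in young sham. The ratio of gate to outside was 2.42 in aged CA, 10.8 in aged sham, 4.94 in young CA and 26.1 in young sham, lowest in the library in which the gate was largest. In the Spp1 and Lpl gate Csf1 stood at 111, 213, 156 and 139 CPM in the same order of libraries, again above the cells outside. Csf1 was above the cells outside in the interferon gate as well, 2.48 times in aged CA, 3.64 times in aged sham, 1.90 times in young CA and 6.82 times in young sham. In the cycling gate the ratios were 2.36, 1.02, 1.37 and 2.69 in the same order, from 7 Csf1 UMIs in aged sham and 11 in young sham.

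Csf2rb was not higher in the Ccl3 and Ccl4 gate than outside the gates beyond counting error. In the Ccl3 and Ccl4 gate it stood at 161 CPM in aged CA, 54.4 in aged sham, 109 in young CA and, from 17 UMIs, 42.5 in young sham, against 160.0, 62.9, 109.8 and 62.5 CPM outside all gates. Csf2ra was higher in the Spp1 and Lpl gate, 2.10 times in aged CA, 2.31 times in aged sham, 1.47 times in young CA and 1.76 times in young sham the level outside. Csf1r was lower there, 0.637, 0.645, 0.676 and 0.601 times the level outside. Among cells outside all 4 gates the ratio of CA to sham in aged mice was 0.444 for Cx3cr1, 0.744 for Csf1r, 1.66 for Csf1, 1.57 for Csf2ra, 2.54 for Csf2rb and 2.11 for Csf2rb2. In young mice it was 0.540, 0.774, 3.99, 2.14, 1.76 and 1.58. All 6 directions were thus present in cells that none of the gates took, and the young Cx3cr1 ratio was then inside 2-fold.

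**Figure D3:**
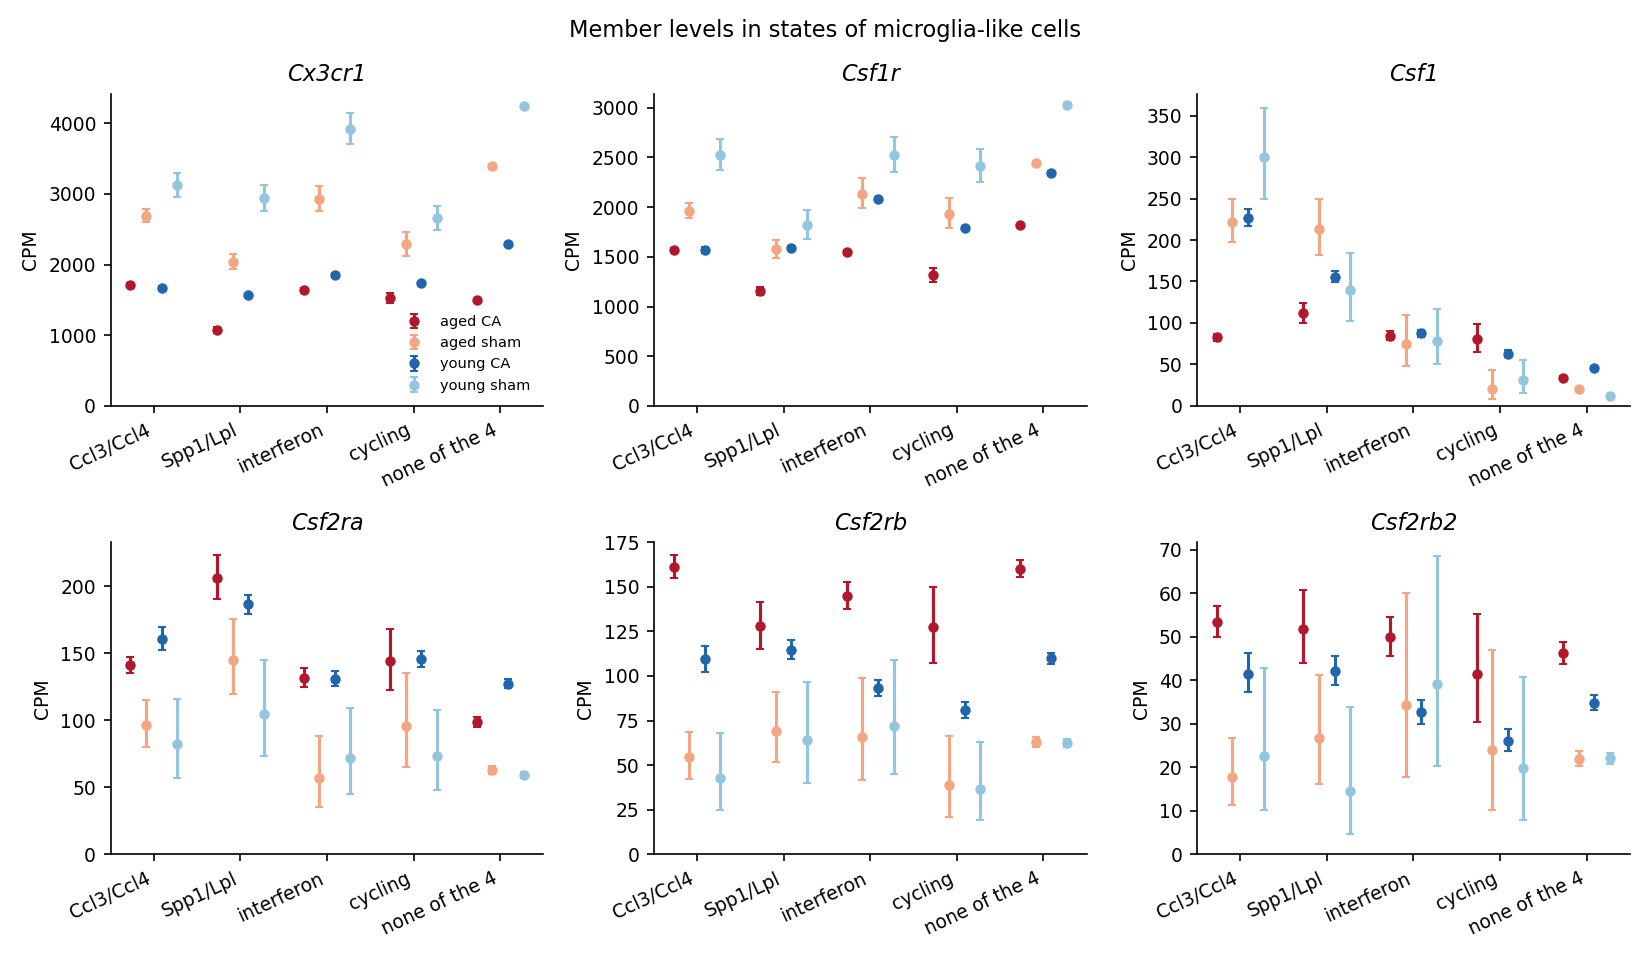
Level of the 6 genes, in CPM, in microglia-like cells inside each of the 4 gates and outside all of them, for the 4 libraries, with exact 95% Poisson intervals. Csf1 was higher inside the Ccl3 and Ccl4 gate and the Spp1 and Lpl gate in all 4 libraries than outside the gates, where it was 11.5 to 46.0 CPM.

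Outside microglia, each class also held UMIs of microglial genes. RNA that was free in the suspension is a possible source, but the source was not tested. The measure used for this microglial RNA starts from the class's summed UMIs of Tmem119, P2ry12 and Sall1, microglial genes that most other classes should lack. These are multiplied by the number of member UMIs per UMI of those genes in the microglia of the same library. T cells, B cells and neurons, which are not known to carry Csf1r, had 0.64 to 1.22 times the Csf1r that this measure gives. They had 0.47 to 1.27 times the Cx3cr1, and values in these ranges were read as background. For Cx3cr1, B cells and neurons had 0.47 to 0.98 times the measure, and the values above that came from T cells. Whether T cells carried Cx3cr1 of their own was not tested, so the upper end of that range is less sure. Neutrophils were in these ranges as well, with ratios of 0.68 to 0.90 for Cx3cr1 and 0.75 to 1.10 for Csf1r.

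Border-associated macrophages, which line the vessels and meninges, had, of the 8 classes compared, the lowest ratio of CA to sham for Cx3cr1 in aged mice. The class held 71 cells in aged CA, 53 in aged sham, 65 in young CA and 95 in young sham, with median depths of 8048 to 9476 UMIs, and all 8 of its gate markers were detected in each library. Cx3cr1 stood at 86.8 CPM (65.2 to 113) in aged CA, 1264 (1168 to 1366) in aged sham, 449 (397 to 506) in young CA and 1096 (1027 to 1168) in young sham. Both sham libraries were high, young CA was lower and aged CA was lowest by far. The aged CA level, from 54 UMIs, was 14.6 times lower than the aged sham level, from 639 UMIs, and the young CA level was 2.44 times lower than the young sham level. Set against the measure of microglial RNA, Cx3cr1 was 0.307 times that measure in aged CA and 3.22 times in aged sham. It was 1.12 times in young CA and 1.83 times in young sham. The aged CA class sum was thus below the range read as background. The young CA class sum was inside it, but above the 0.98 that B cells and neurons reached. Tmem119, P2ry12 and Sall1 together stood at 313 CPM in aged CA and 470 in young CA, against 55.6 and 142 in T cells of these libraries. The measure counts all of these UMIs as stray, so it may set background too high in this class.

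The same difference was seen cell by cell. The median border-associated macrophage had 0 CPM of Cx3cr1 in aged CA, 1200 in aged sham, 251 in young CA and 1020 in young sham. No Cx3cr1 UMI was found in 45 of 71 cells in aged CA, 2 of 53 in aged sham, 16 of 65 in young CA and 6 of 95 in young sham. More than 1000 CPM was reached by 0 cells in aged CA, 34 in aged sham, 6 in young CA and 49 in young sham. With cells thinned to 2000 UMIs, a Cx3cr1 UMI was found in 9 of 69 cells in aged CA, 44 of 53 in aged sham, 25 of 63 in young CA and 68 of 91 in young sham. At equal depth the order of the libraries was thus the same as by level.

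**Figure D4:**
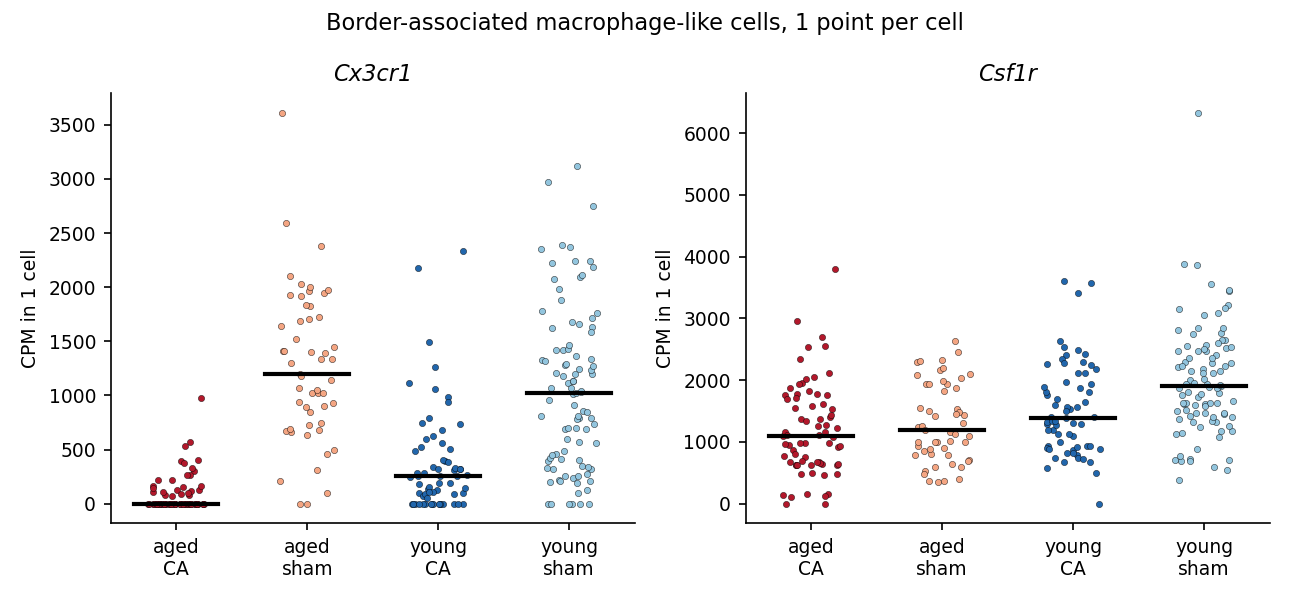
Cx3cr1 and Csf1r in each border-associated macrophage of the 4 libraries, in CPM of the cell's own UMIs, 1 point per cell with the median as a bar. For Cx3cr1 most aged CA cells lay at 0 and 34 of 53 aged sham cells lay above 1000, while the Csf1r medians were 1094 in aged CA, 1190 in aged sham, 1385 in young CA and 1902 in young sham.

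Csf1r in the same cells stayed near its sham level in aged mice. It stood at 1247 CPM in aged CA, 1292 in aged sham, 1521 in young CA and 1991 in young sham, 3.66 to 4.65 times the background measure. The ratio of CA to sham was 0.965 (0.869 to 1.07) in aged mice and 0.764 (0.704 to 0.828) in young mice. The makeup of the class differed between libraries on other markers: Mrc1 stood at 2372 CPM in aged CA, 2511 in aged sham, 3304 in young CA and 3639 in young sham, Pf4 at 617, 1322, 1282 and 2313 CPM, and Cd163 at 1041, 360, 894 and 709 CPM. The summed microglial markers were also lowest in aged CA, at 1221 CPM, against 3159 in aged sham, 2948 in young CA and 3985 in young sham, and the summed monocyte markers stood at 53.0, 61.3, 228 and 168 CPM. Their part in the Cx3cr1 result was not tested. Among the cells with no UMI of Tmem119, P2ry12 or Sall1, which numbered 21, 2, 10 and 1, Cx3cr1 stood at 111 CPM in aged CA, 825 in aged sham, 215 in young CA and 212 in young sham. Csf2ra stood at 73.9, 109, 165 and 93.1 CPM in border-associated macrophages and Csf2rb at 99.6, 61.3, 103 and 58.2 CPM, while Csf1 had 1 to 8 UMIs in each library.

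Monocytes and monocyte-derived macrophages numbered 69 in aged CA, 19 in aged sham, 260 in young CA and 13 in young sham. Their Cx3cr1 level was 97.0 CPM in aged CA, 329 in aged sham, 337 in young CA and 323 in young sham, so that only the aged CA library was low. The ratio of CA to sham was 0.294 (0.228 to 0.381) in aged mice and 1.04 (0.843 to 1.30) in young mice. The aged CA level was 0.774 times the background measure, against 3.54 in aged sham, 1.64 in young CA and 1.89 in young sham. Csf1r stood at 362, 494, 554 and 538 CPM in these cells. Csf2ra was nearly level across the 4 libraries at 249, 247, 243 and 266 CPM, above its level in microglia in each. Csf2rb stood at 221, 152, 216 and 212 CPM. Csf2rb2 rested on few UMIs in the sham libraries, with 82 in aged CA, 4 in aged sham, 359 in young CA and 6 in young sham.

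By level, Csf2ra and Csf2rb stood above microglia in neutrophils of every library and in dendritic cells of both sham libraries. In young CA the neutrophil interval of Csf2rb overlapped that of microglia. In aged CA, dendritic cells were below microglia for both chains, at 86.5 against 116 CPM and 108 against 157 CPM. In young CA they were below microglia for Csf2ra alone, at 116 against 137 CPM. Dendritic cells (41, 13, 72 and 22 cells) had Csf2rb at 108 CPM in aged CA, 113 in aged sham, 243 in young CA and 117 in young sham, and Csf2ra at 86.5, 179, 116 and 239 CPM. Their Cx3cr1, at 311, 697, 184 and 491 CPM, was 1.14, 1.59, 1.0 and 1.23 times the background measure. Neutrophils (68, 76, 23 and 15 cells) had Csf2rb at 254 CPM in aged CA, 112 in aged sham, 148 in young CA and 115 in young sham. In aged CA the neutrophil level of Csf2rb and that of monocytes overlapped within counting error, and both were above microglia. Their Csf2ra level was 185, 157, 168 and 148 CPM. Csf2rb2 had 43 UMIs in aged CA neutrophils and 5, 0 and 0 in the other libraries. In dendritic cells of aged CA, 41 Csf1 UMIs came from 6 of the 41 cells.

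**Figure D5:**
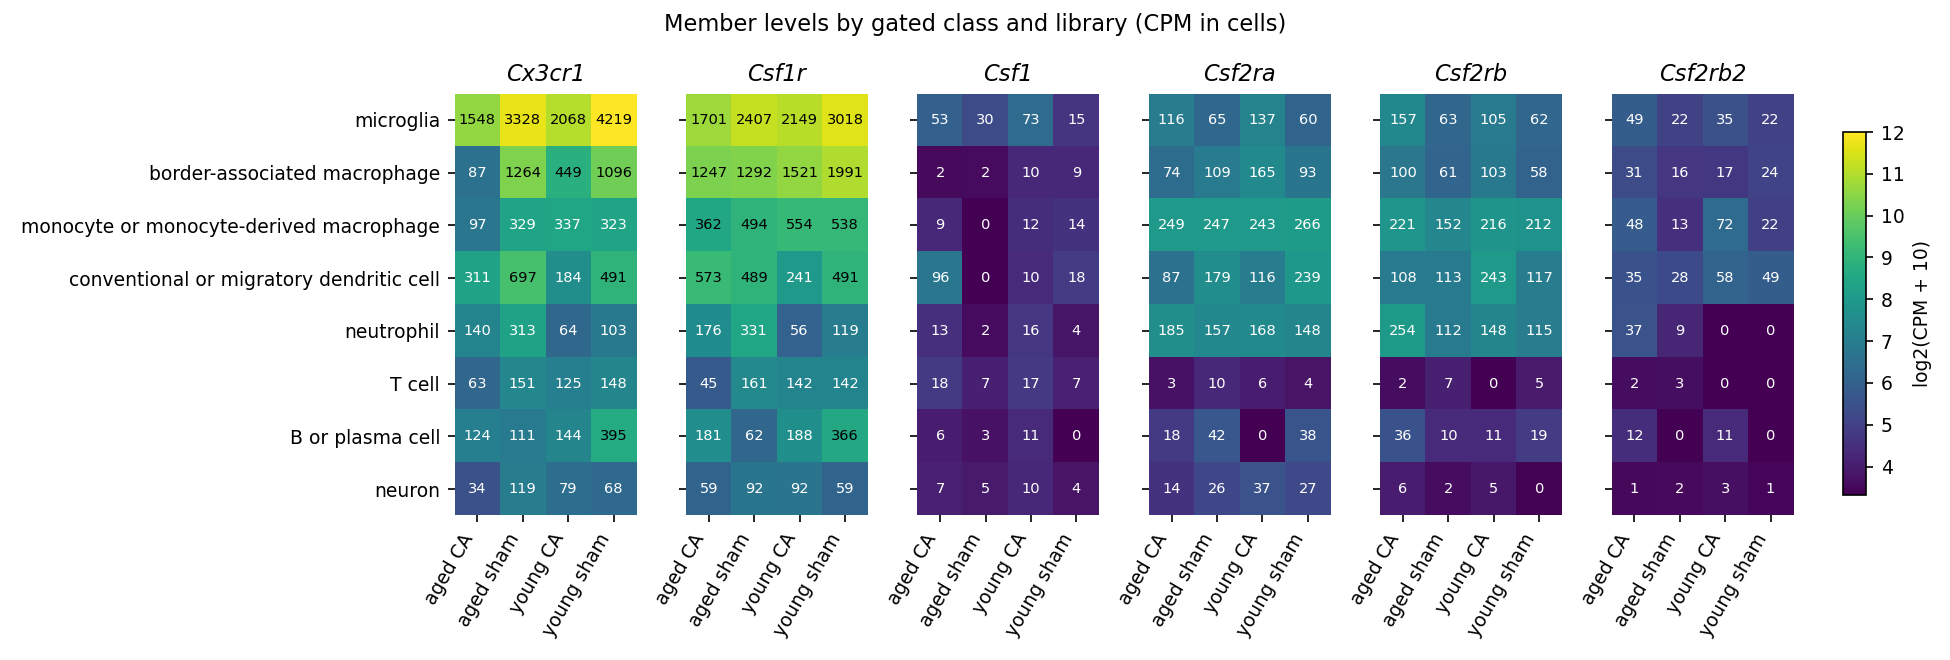
Level of the 6 genes in 8 cell classes (rows) and the 4 libraries (columns), with the CPM printed in each cell of the map and the colour giving log2(CPM + 10). Of these classes, microglia were highest for Cx3cr1 and Csf1r in every library, and Csf2ra was higher in monocytes, at 243 to 266 CPM, than in microglia, at 59.8 to 137 CPM.

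The 8 classes in the map of levels were ranked, leaving out the gates for astrocytes, oligodendrocytes, endothelium and other scarce cells. The order of these classes by Cx3cr1 level began with microglia in all 4 libraries. Of the 8, border-associated macrophages came next in aged sham, young CA and young sham, clear of the following class beyond counting error. In aged CA dendritic cells came next, at 311 CPM. Border-associated macrophages there lay among neutrophils, B cells, monocytes and T cells, with overlapping intervals between neighbours. This order is by level, without regard to background. In young CA, border-associated macrophages stood at 1.12 times the background measure and monocytes, next in order, at 1.64 times. For Csf1r, microglia and then, of the 8 classes, border-associated macrophages led in every library.

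The ligands of these receptors were sparse among sorted cells. Fractalkine, Cx3cl1, was found in the neurons that passed the sort, at 54.0 CPM in aged CA, 61.7 in aged sham, 52.2 in young CA and 58.5 in young sham, against 0.817, 2.74, 0.562 and 1.65 CPM in microglia. Il34, the other Csf1r ligand, stood at 14.2, 21.7, 18.3 and 17.9 CPM in neurons. Csf2, the gene of GM-CSF, had 1, 7, 0 and 2 UMIs in T cells. Neurons are not CD45-bearing cells and were a remnant of the sort, so these values do not measure the ligands in the brain as a whole. In microglia none of the 6 ligand genes of the list passed the filter on low levels.

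A wider list of 72 genes of these pathways (ligands, partner receptors, adaptors and kinases, shedding and down-modulation, transcription factors and targets) had 51 genes above the filter. Between aged CA and aged sham 5 of them were at least 2-fold higher and 2 at least 2-fold lower, shares of 9.80% and 3.92%, against 6.54% and 9.83% of all 9783 genes. The median log2 ratio was 0.03 for the list and for all genes. Between young CA and young sham 4 were higher and 1 was lower, shares of 7.84% and 2.0% against 6.6% and 3.16% of all genes, with a median of -0.01 against -0.07. All 23 adaptors and kinases were measured, and 1 of them passed 2-fold after CA in aged mice, Stat3, at 276 CPM in aged CA against 128 in aged sham. Of the 12 measured genes of shedding and down-modulation, Socs3, an inhibitor of cytokine receptor signalling induced by STAT3, stood at 255 CPM in aged CA, 26.1 in aged sham, 99.4 in young CA and 14.4 in young sham. Its ratio of CA to sham was 9.77 in aged and 6.91 in young mice. Rhbdf2, a partner of the sheddase ADAM17, stood at 27.9 CPM in aged CA against 11.6 in aged sham, a ratio of 2.41.

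Of the 4 measured targets of GM-CSF and STAT5, Pim1, a serine-threonine kinase, stood at 79.2 CPM in aged CA, 12.3 in aged sham, 35.3 in young CA and 6.84 in young sham. Bcl2a1b, an anti-apoptotic BCL2 relative with near-identical gene copies among which reads are split uncertainly, was past 2-fold in young mice alone, at 273 CPM in young CA against 135 in young sham, and stood at 336 against 207 CPM in aged CA and aged sham. Among 11 measured transcription factors, Cebpb was higher after CA at both ages, at 275 and 132 CPM in aged CA and aged sham and at 277 and 102 CPM in young CA and young sham. Maf, a factor of resident macrophages, was lower at both ages, 3.75 times in aged mice (249 against 933 CPM) and 2.09 times in young mice (439 against 917 CPM). Csf3r, the receptor for granulocyte colony-stimulating factor and the 1 of 5 partner receptors measured, stood at 144 CPM in aged CA, 463 in aged sham, 380 in young CA and 504 in young sham. It was 3.22 times lower in aged CA than in aged sham and 2.64 times lower than in young CA. Between the ages after CA, 2 genes of the list were higher, Socs3 and Pim1, and 1 was lower, Csf3r, shares of 3.92% and 2.0% against 2.22% and 3.35% of all genes. After sham surgery none passed 2-fold in either direction, where 3.34% of all genes were higher and 0.179% lower in aged mice.

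For each member, the genes whose levels were most alike over 30 sums of a class in a library (each of at least 20 cells) were found by Pearson's correlation of log2(CPM + 10), given as a description of sums that share libraries and depth. For Cx3cr1 they were Gm15503 (r = 0.936), Lair1 (0.927) and Tgfbr1 (0.927), and for Csf1r they were Adap2 (0.964), Adap2os (0.961) and Trem2 (0.960). Csf1 had lower values, with Ap3b1 at 0.814, Lrp4 at 0.776 and Itprid2 at 0.763. Csf2ra had Fes (0.888) and Alox5ap (0.887) among its most alike genes, Csf2rb was most like Alox5ap (0.957), Spi1 (0.944) and Tyrobp (0.942), and Csf2rb2 was most like Atf3 (0.888), Gm46224 (0.886) and Tcirg1 (0.873).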

How the data were processed

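The authors deposited, for each of the 4 libraries, a matrix of UMI counts per gene and cell barcode, whole numbers with no normalization, made with Cell Ranger 7.1.0 on build mm10 per the submitters' processing notes. The annotation, the use of introns and the rule by which barcodes were called cells are not given in the sources used here. Every deposited matrix was used, and columns of values left unused numbered 0. The members and all lists were chosen with earlier results of these data known.

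Cells had at least 500 UMIs, 200 genes and at most 10% mitochondrial UMIs. Doublets were the cells of highest Scrublet score (scanpy 1.11.5), 0.8% per 1000 barcodes, because its automatic limit marked 1, 1, 0 and 0 cells. A cell joined 1 of 17 classes when it had at least 2 of that class's markers and a marker share of at least 0.25 of the class's typical level. A cell whose second class reached over 0.5 of its first was set aside as mixed. No deposited annotation of cells was used, so shares rest on these rebuilt names. The counts of each class in a library were added up and divided by that class's total (counts per 1000000 UMIs, CPM). Ratios were called at 2-fold, among genes with 10 CPM in either library, and intervals were exact; the intervals of differences between log2 ratios use a normal approximation. The floor for a count of 0 was 3 counts.

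Named genes were the 6 members, the listed pathway genes that passed 2-fold or were ligands or partner receptors, and for each member the 3 most alike genes over sums with at least 100 UMIs. A gene that this rule names is not reported here. Alternatives were 2000 UMIs, 3 markers, 20% mitochondrial UMIs, doublets kept, clusters from leidenalg 0.10.2, each cell weighing the same, thinning to 2000 UMIs, a pseudocount of 1 CPM, filters of 2 CPM or none, TMM scaling (edgeR 4.0.16) and median-of-ratios size factors. The software was Python 3.11.15, numpy 2.4.6, scipy 1.17.1, pandas 2.3.3 and R 4.3.3, and the ratio and interval code was tested on simulated data. Counting error was small for microglia, with 31006651 to 87256824 UMIs per library, and larger for classes of few cells.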

Additional observations from a re-analysis of the deposited data

Results flagged for a closer look

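In microglia-like cells, Csf1 stood out because its ratio of aged to young took opposite signs in the 2 conditions, with a log2 ratio of -0.44 after cardiac arrest and 1.03 after sham surgery. Csf2ra did the same at a smaller size, with a log2 ratio of aged to young of -0.24 after cardiac arrest and 0.13 after sham surgery. The Csf1 ratio after cardiac arrest depended on depth. In cells of 5000 to 20000 UMIs its log2 ratio was -0.24. From 2000 to 5000 UMIs Csf1 stood at 50.7 CPM in both aged CA and young CA. From 5000 to 10000 UMIs it stood at 52.5 CPM in aged CA and 48.5 in young CA, with overlapping intervals. In border-associated macrophages, the log2 ratio of aged to young for Cx3cr1 was -2.37 after cardiac arrest and 0.21 after sham surgery. The aged CA value there rests on 54 UMIs. The aged CA level was below the range read as background, at 0.307 times the measure of microglial RNA. The young CA level, at 1.12 times that measure, was inside the range only through T cells. That measure may be too high in this class, so whether these levels lie above background was not settled. Each of these differences is between single libraries and was not tested.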

How the results depend on the processing

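No paired analysis was possible because each group was 1 library, and for the same reason no replicate could be left out. The 24 log2 ratios of the members in microglia-like cells kept their sign in all 13 settings tried, except Csf2rb (8 of 13) and Csf2rb2 (11 of 13) for aged over young in sham, both near 0. The cells of 5000 to 20000 UMIs, the cells outside the 4 gates and a microglia limit of 0.1 were added after seeing the data. Clusters gave no value for border-associated macrophages, T cells and dendritic cells. The Cx3cr1 log2 ratio of CA to sham ranged from -1.20 to -0.89 in aged mice and from -1.04 to -0.89 in young mice, and was past 2-fold in 10 and 7 of the 13 settings. Csf1 ranged from 0.69 to 1.07 in aged mice, from 2.0 to 2.43 in young mice, and from 0.76 to 1.20 for aged over young in sham, past 2-fold in 1, 13 and 7 settings. Median-of-ratios size factors moved log2 ratios of CA to sham by 0.13 in aged and 0.11 in young mice.

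Members past 2-fold lower became 0 in aged CA with TMM, median-of-ratios size factors and equal weight of cells, and became 0 in young CA with these 3, with thinning, at 5000 to 20000 UMIs and outside the 4 gates. Members past 2-fold higher became 1 in young CA with equal weight of cells, and 0 for aged over young in sham with equal weight, TMM, median-of-ratios, a pseudocount of 1 CPM, thinning and outside the gates.

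The number of genes called follows the filter by construction, since more genes are tested. With 2 CPM and with no filter, genes lower in aged CA numbered 2010 and 6335, genes higher in young CA 966 and 1911, genes lower in young CA 720 and 4329, genes higher in aged CA than young CA 509 and 3948, genes lower there 620 and 1702, genes higher in aged sham than young sham 966 and 5041, and genes lower there 55 and 681. Genes higher in aged CA with no filter numbered 1827. Outside the 4 gates, 347 genes were higher and 189 lower in young CA. For aged over young in sham, equal weight gave 660 higher and 49 lower, thinning 40 lower, and 5000 to 20000 UMIs 124 higher. The cause was not tested for these last 3 settings.

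Of the pathway list, with 2 CPM and no filter, 5 and 9 genes were lower in aged CA, 7 and 9 higher and 2 and 6 lower in young CA, 3 and 3 lower in aged CA than in young CA, and 2 and 9 higher and 1 and 1 lower in aged sham than in young sham. With no filter 9 were higher in aged CA and 4 higher in aged CA than in young CA. Outside the gates 3 were higher in aged CA. The 1 gene lower in young CA, Maf, became 0 with equal weight, TMM, median-of-ratios, thinning and outside the gates. Equal weight and thinning each gave 1 gene higher in aged sham.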

Other observations

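Some Csf1 lay outside the classes described. Cells in the oligodendrocyte gate, which numbered 29 in aged CA, 47 in aged sham, 11 in young CA and 19 in young sham, had 19, 20, 10 and 13 Csf1 UMIs, levels of 94.7, 49.96, 158 and 70.6 CPM. The mast cell gate held 1 cell in aged sham, with 18 Csf1 and 24 Csf2rb UMIs, and 1 cell in young sham, with 22 Csf1 and 10 Csf2rb UMIs.

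Among other receptors of the family, Il5ra, the interleukin 5 receptor alpha chain, had 45 UMIs in B or plasma cells of aged CA, 19 in aged sham, 11 in young CA and 8 in young sham. Csf3r was present in neutrophils at 415 CPM in aged CA, 601 in aged sham, 573 in young CA and 948 in young sham. Csf3, its ligand gene, had 21 UMIs in neutrophils of aged CA.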
